A study of Homo sapiens with 10 samples.

Results

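The 10 genes followed here encode matrix proteins: the collagen chains COL1A1, COL4A1, COL4A2, COL5A1, COL5A2, COL6A1, COL6A2, COL6A3 and COL12A1, and fibronectin (FN1). They were taken by symbol from the 57445 gene identifiers of the count tables, and all 10 were found. The RNA sequenced came from PC3, an established line of human prostate carcinoma that was first isolated from bone, and was read in 10 libraries, 2 in each of 5 groups. Of these groups 3 stably expressed a short hairpin RNA (shRNA), namely Scramble, RNF2 shRNA1 or RNF2 shRNA2, and the labels name no compound for them. The others were treated with PRT4165 or with GW-516 for 48 hours, and the labels name no hairpin, no dose and no vehicle-treated group for them. RNF2 encodes the catalytic subunit with which Polycomb repressive complex 1 (PRC1) attaches ubiquitin to histone H2A, and PRT4165 is a small molecule described as blocking this activity. GW-516 is given by its code name alone. The study's title places PRC1 behind the spread of double-negative prostate cancer.

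Collagens are built from 3 chains wound into a triple helix. COL1A1 pairs with COL1A2 in type I, the main fibril of bone and stroma, COL4A1 with COL4A2 in the type IV network of basement membranes, COL5A1 with COL5A2 in type V, which sets fibril diameter, and COL6A1, COL6A2 and COL6A3 in the beaded filaments of type VI. COL12A1 forms type XII, which sits on the surface of type I fibrils, and fibronectin is a dimeric glycoprotein that cells assemble into fibrils through the integrin of ITGA5 and ITGB1. In tumours most of this matrix is known to come from stromal fibroblasts, while carcinoma cells that have taken on mesenchymal features make part of it themselves.

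Some of the genes are neighbours in the genome. COL4A1 (ENSG00000187498.10, chromosome 13, 110801318 to 110959496, reverse strand, GRCh37) and COL4A2 (ENSG00000134871.13, chromosome 13, 110958159 to 111165374, forward strand) lie head to head and overlap in the annotation counted. COL6A1 (ENSG00000142156.10, chromosome 21, 47401651 to 47424964) and COL6A2 (ENSG00000142173.10, chromosome 21, 47518011 to 47552763) follow each other on the forward strand. COL5A2 (ENSG00000204262.7, chromosome 2, 189896622 to 190044605), FN1 (ENSG00000115414.14, chromosome 2, 216225163 to 216300895) and COL6A3 (ENSG00000163359.11, chromosome 2, 238232646 to 238323018) lie far apart on the reverse strand of chromosome 2. COL1A1 (ENSG00000108821.9) lies on chromosome 17, 48260650 to 48278993, reverse strand. COL5A1 (ENSG00000130635.11) lies on chromosome 9, 137533620 to 137736686, forward strand, and COL12A1 (ENSG00000111799.16) on chromosome 6, 75794042 to 75915767, reverse strand. Counting used strand, so reads of COL4A1 and COL4A2 could be told apart.

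Promoter sequence was held in RefSeq's table (GRCh38.p14) for 7 of the 10 genes, all but COL1A1, COL5A2 and COL6A1. The stretches below are those of the head-to-head pair, of COL6A2 and of FN1 and COL6A3. COL6A2 had the largest difference of the 10 genes among those tested. FN1 and COL6A3 were, after COL4A1 and COL4A2, the closest pair of these in pattern by the likeness measure given below. Each ends at the base before the annotated start and reads 5′ to 3′ on the gene's strand (for the shared stretch, on that of COL4A2). Capitals mark matches, on either strand, to GGGCGG (GC box), CCAAT, TGACGTCA (the cyclic AMP response element, CRE), TGANTCA (AP-1) or TATAAA, and neighbouring GC boxes overlap where a run of capitals is longer.
COL4A1 to COL4A2, chr13:110307158-110307283: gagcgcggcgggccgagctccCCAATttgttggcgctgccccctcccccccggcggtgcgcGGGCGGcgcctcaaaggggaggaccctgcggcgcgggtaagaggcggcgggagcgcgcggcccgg
COL6A2, chr21:46097862-46098111: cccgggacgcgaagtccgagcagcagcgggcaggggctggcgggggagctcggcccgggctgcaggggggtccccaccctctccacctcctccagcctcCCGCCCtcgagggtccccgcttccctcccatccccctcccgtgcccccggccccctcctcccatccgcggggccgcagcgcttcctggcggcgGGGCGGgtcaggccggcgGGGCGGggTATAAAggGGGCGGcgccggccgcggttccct
FN1, chr2:215436069-215436318: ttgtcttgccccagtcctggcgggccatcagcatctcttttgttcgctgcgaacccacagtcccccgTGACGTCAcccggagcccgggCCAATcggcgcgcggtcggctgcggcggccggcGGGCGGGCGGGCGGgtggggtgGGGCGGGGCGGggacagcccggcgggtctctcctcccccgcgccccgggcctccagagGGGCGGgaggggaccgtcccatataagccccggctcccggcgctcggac
COL6A3, chr2:237414165-237414414: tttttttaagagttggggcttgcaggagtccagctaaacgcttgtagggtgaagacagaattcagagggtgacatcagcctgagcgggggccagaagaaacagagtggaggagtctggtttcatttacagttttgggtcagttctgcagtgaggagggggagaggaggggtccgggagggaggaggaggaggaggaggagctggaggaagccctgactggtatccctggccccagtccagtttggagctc

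The 126 bases between the starts of COL4A1 and COL4A2 held 1 GC box and 1 CCAAT, at 80.2% G and C. Of 35116 promoters, 34.6% held a GC box and 21.1% a CCAAT in the 126 bases before the start. The 250 bases before COL6A2 held 4 GC boxes and a TATAAA beginning 32 bases before the start, a match found in 10.7% of promoters of that length. FN1 was the only 1 of the 7 with a CRE, beginning 183 bases before the start. A CRE was found in 1.65% of all promoters of 250 bases, a CCAAT, which FN1 also held, in 32.0% and a GC box in 42.6%. COL6A3 held no match to any of the 5, with 56.0% G and C and 3 CG pairs, against 76.4% and 32 for FN1 and 79.6% and 28 for COL6A2. The median over all promoters was 58.0% G and C. No promoter of the 7 held TGANTCA, which 6.57% of all promoters did. These are matches of letters, and binding was not measured.

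The libraries were deep and replicates close. Total counts ran from 65877850 to 108380198 per library. Between the libraries of a pair, the chi-square per degree of freedom over genes was 2.18 in Scramble, 2.21 in RNF2 shRNA1, 2.23 in GW-516, 7.40 in PRT4165 and 13.25 in RNF2 shRNA2. Counting noise alone would give a value near 1, or near 2 if both ends of each fragment were counted. Whether the 2 libraries of each pair were grown separately is not in the labels, so p-values here reflect the spread between samples that may be technical replicates. In bulk RNA, fewer cells that express a gene and less of its RNA per cell cannot be told apart. RNF2 mRNA went against 1 label: it stood at 30.6 and 28.3 CPM (read counts after TMM scaling for depth) in Scramble and 12.07 and 11.96 in RNF2 shRNA1, but at 33.5 and 35.3 in the libraries labelled RNF2 shRNA2. In those last libraries BMI1, another PRC1 subunit, was at 53.0 and 61.6 CPM against 252 and 255 in Scramble. Every direction below from the libraries labelled RNF2 shRNA2 therefore comes from cells with less BMI1 mRNA and no less RNF2 mRNA. The paths in all 10 file headers carry the prefix MDV3 where the labels say PC3, those of GW-516 also the name Th4, and the sources used here do not say what either stands for. Of the 10, only the header of RNF2 shRNA2 replicate 2, the library with the most counts (108380198), carries the text L005only. The sources used here do not explain it. The epithelial genes KRT8, KRT18, KRT19 and EPCAM stood at 95.9 CPM or more in every library, and CTNNA1, which PC3 is known to lack and which was named after its values were seen, between 0.440 and 1.03 CPM.

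Most markers of other cell types were below 1 CPM, and a few were measured at levels like that of COL6A3 or above. Of 10 fibroblast and stromal markers, 6 stayed below 1 CPM in every library, among them DCN, LUM, THY1, PDGFRA, PDGFRB and COL3A1, while COL1A2, itself a collagen chain, ran from 136 to 258 CPM, the pericyte marker RGS5 from 4.96 to 8.95 CPM, ACTA2 from 1.59 to 3.38 and FAP from 1.26 to 3.21. Without COL1A2 the stromal markers summed to 10.4 to 10.6 CPM in Scramble, 12.4 to 12.9 in RNF2 shRNA1, 12.4 to 13.8 in the libraries labelled RNF2 shRNA2, 11.8 to 13.1 with PRT4165 and 13.0 to 13.1 with GW-516. Of 6 blood cell markers all stayed below 1 CPM. Of 6 endothelial markers PECAM1 was not matched, and CDH5, VWF and CLDN5 stayed below 1 CPM. KDR ran from 0.343 to 6.40 CPM and TEK from 0.615 to 2.14. The endothelial sum, mostly these last, was 4.01 to 4.19 CPM in Scramble, 8.29 with PRT4165, 8.50 to 8.68 with GW-516, 1.37 to 1.48 in RNF2 shRNA1 and 2.45 to 3.06 in the libraries labelled RNF2 shRNA2. The part of these markers in the results was not tested.

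Among the 10 genes, COL6A1, COL5A2 and COL6A2 had the highest levels in Scramble. Per kilobase of annotated exon (RPKM), Scramble had COL6A1 at 47.7 ± 0.566 (SD, n = 2), COL5A2 at 23.3 ± 0.109 and COL6A2 at 10.9 ± 0.101. COL4A2 followed at 4.87 ± 0.0818, COL12A1 at 4.41 ± 0.0777, COL4A1 at 2.89 ± 0.0419, COL1A1 at 2.72 ± 0.0546 and FN1 at 1.74 ± 0.171. COL6A3 was far lower at 0.158 ± 0.0200 RPKM, and COL5A1 had no count in either Scramble library. Neighbours in this order did not overlap in Scramble. In the libraries labelled RNF2 shRNA2, COL1A1 (1.63 ± 0.107), FN1 (1.59 ± 0.0811) and COL6A2 (1.58 ± 0.0737) did not differ beyond their spread, and COL5A2 stood above COL6A1. The length covers all annotated isoforms, so RPKM understates genes with many of them.

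The pair of type V chains was lopsided. COL5A1 had 2 and 0 counts in RNF2 shRNA1, 4 and 2 with PRT4165, 8 and 4 with GW-516 and none in the other 4 libraries. COL5A2, its usual partner, had 6076 to 18443 counts in every library. COL5A1 failed the filter on low counts and was not tested, while each of the other 9 genes had at least 129 counts in every library and passed. The 10 genes summed to 660 and 652 CPM in Scramble, 599 and 588 in RNF2 shRNA1, 419 and 442 in the libraries labelled RNF2 shRNA2, 773 and 838 with PRT4165, and 693 and 693 with GW-516. COL6A1 alone gave 39.0% and 38.8% of that sum in Scramble but 22.0% and 20.7% in the libraries labelled RNF2 shRNA2.

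**Figure D1:**
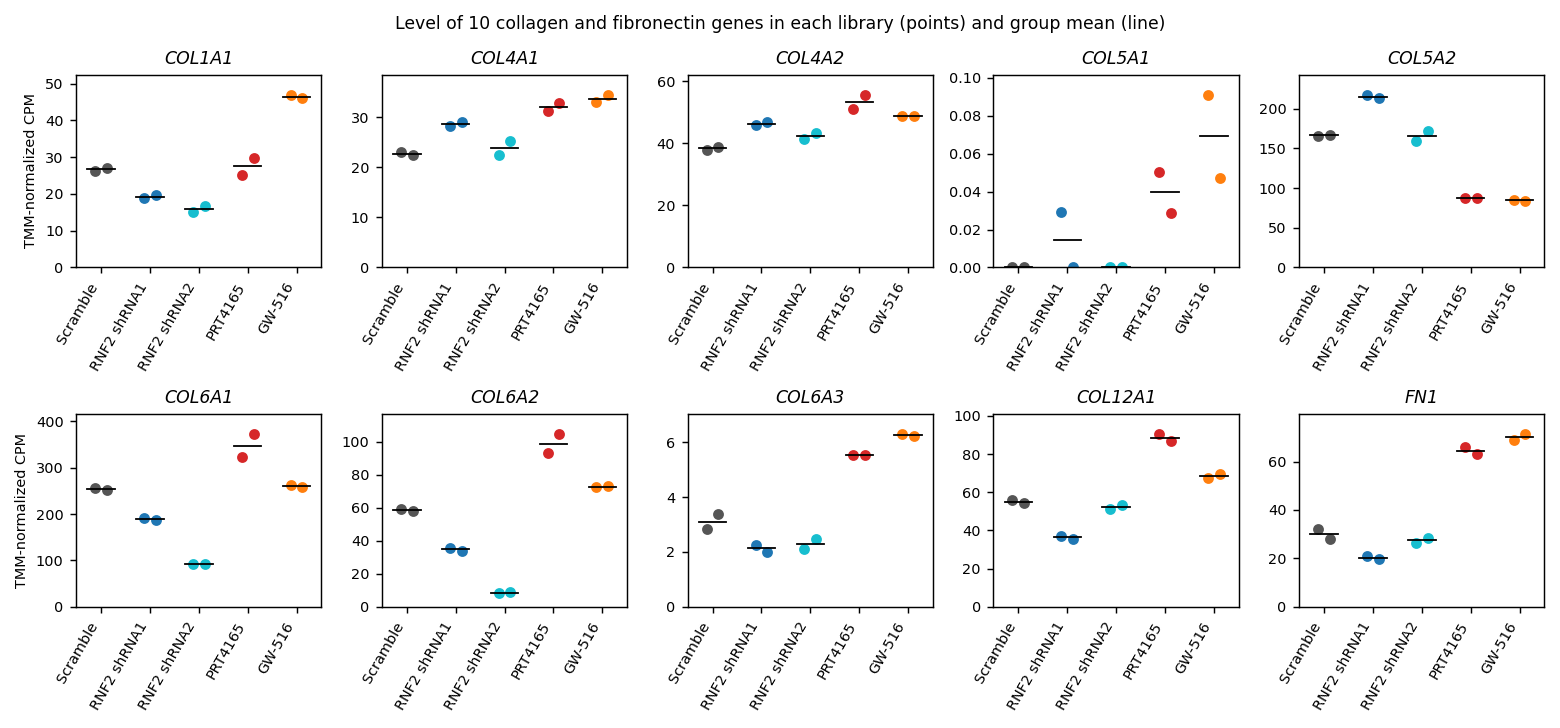
Level of each of the 10 genes (vertical axis, TMM-normalized CPM, from 0) in the 5 groups (horizontal axis). Points are libraries and lines group means; COL5A2 is lowest in the 4 compound-treated libraries, where FN1, COL6A3 and COL12A1 are highest, and COL6A2 is lowest in the libraries labelled RNF2 shRNA2.

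RNF2 shRNA1 set beside Scramble shows the genes in cells with less RNF2 mRNA. The chains of type VI, type I and type XII and fibronectin fell, and the basement membrane chains of type IV and COL5A2 rose. Of the 9 genes tested, 3 were higher and 6 lower at an edgeR adjusted p below 0.05, with a median log2 difference of -0.47 against -0.015 over all genes tested. Such calls were common here: 54.7% of all genes passed (26.2% higher, 28.6% lower).

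COL6A2 stood at 35.6 and 33.9 CPM in RNF2 shRNA1 against 58.9 and 58.2 in Scramble, 1.69-fold lower (log2 -0.75, SE 0.0503, edgeR adjusted p = 5.4e-12). COL6A1 stood at 192 and 187 CPM against 257 and 253, 1.34-fold lower (log2 -0.43, SE 0.0519, edgeR adjusted p = 2.5e-05). For these chains both knockdown libraries lay below both Scramble libraries, in a comparison where 77.8% of all genes did not overlap. COL12A1 stood at 37.3 and 35.6 CPM against 55.7 and 54.4, 1.51-fold lower (log2 -0.59, SE 0.0432, edgeR adjusted p = 1.7e-11). FN1 stood at 21.1 and 19.6 CPM against 32.2 and 28.02, 1.48-fold lower (log2 -0.57, SE 0.0620, edgeR adjusted p = 6.4e-08), again without overlap. COL1A1 stood at 18.8 and 19.8 CPM against 26.3 and 27.1, 1.39-fold lower (log2 -0.47, SE 0.0673, edgeR adjusted p = 2.8e-06). COL6A3, the longest type VI chain, stood at 2.24 and 2.01 CPM against 2.82 and 3.38, 1.45-fold lower (log2 -0.54, SE 0.141, edgeR adjusted p = 0.0023). Leaving out Scramble replicate 2 ended that last call (log2 -0.39, edgeR adjusted p = 0.067).

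Against these, COL5A2 stood at 217 and 214 CPM against 166 and 167, 1.30-fold higher (log2 0.37, SE 0.0337, edgeR adjusted p = 8.4e-10). COL4A1 stood at 28.2 and 29.0 CPM against 23.0 and 22.5 (log2 0.33, SE 0.0580, edgeR adjusted p = 3.1e-05) and COL4A2 at 45.8 and 47.0 against 37.9 and 38.8 (log2 0.27, SE 0.0470, edgeR adjusted p = 2.1e-05). The type IV chains thus rose by similar amounts, with every knockdown library above every Scramble library.

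In the libraries labelled RNF2 shRNA2 the largest differences were in type VI collagen. COL6A2 stood at 8.24 and 8.80 CPM against 58.9 and 58.2 in Scramble, 6.84-fold lower (log2 -2.77, SE 0.0574, edgeR adjusted p = 1.3e-20). COL6A1 stood at 92.1 and 91.7 CPM against 257 and 253, 2.77-fold lower (log2 -1.47, SE 0.0533, edgeR adjusted p = 1.1e-09). COL1A1 stood at 15.2 and 16.7 CPM against 26.3 and 27.1, 1.67-fold lower (log2 -0.74, SE 0.0668, edgeR adjusted p = 6.3e-09). None of these 3 overlapped with Scramble, which held for 68.6% of all genes. Of the 9 genes tested 1 was higher and 4 lower, with a median log2 difference of -0.13 against 0.009 over all genes, beside 42.1% of all genes called (21.1% higher, 21.0% lower).

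The smaller calls of this comparison were less firm. COL6A3, at 2.12 and 2.47 CPM, was called lower (log2 -0.42, SE 0.135, edgeR adjusted p = 0.014). Leaving out Scramble replicate 2 ended the call (edgeR adjusted p = 0.22), as did leaving out RNF2 shRNA2 replicate 1 (0.096), summing the near-identical pairs (0.064) and DESeq2 (adjusted p = 0.051). COL4A2, at 41.4 and 43.3 CPM, was called higher (log2 0.14, SE 0.0465, edgeR adjusted p = 0.014). Leaving out Scramble replicate 1 ended it as well (edgeR adjusted p = 0.15), as did leaving out RNF2 shRNA2 replicate 2 (0.17) and summing the pairs (0.21). COL5A2, at 160 and 172 CPM, showed no call (log2 -0.003, 95% interval -0.073 to 0.066, edgeR adjusted p = 0.95), nor did COL4A1 at 22.4 and 25.2 CPM (log2 0.069, 95% interval -0.050 to 0.188, edgeR adjusted p = 0.36). COL12A1, at 51.0 and 53.3 CPM, missed the threshold (log2 -0.077, edgeR adjusted p = 0.15) and passed it without RNF2 shRNA2 replicate 2 (0.045). FN1, at 26.5 and 28.5 CPM, missed it too (log2 -0.13, edgeR adjusted p = 0.088). It passed without Scramble replicate 2 (edgeR adjusted p = 0.014), without RNF2 shRNA2 replicate 2 (0.020) and with no filter on low counts (0.037).

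Set directly against the first hairpin, the libraries labelled RNF2 shRNA2 had less of 6 genes and more of 2, where 59.2% of all genes were called (29.9% higher, 29.2% lower). The libraries of these groups did not overlap for 8 of the 9 genes and for 77.2% of all genes. COL6A2 was 4.06-fold lower (log2 -2.02, SE 0.0592, edgeR adjusted p = 9.2e-19) and COL6A1 2.06-fold lower (log2 -1.05, SE 0.0533, edgeR adjusted p = 7.8e-09). COL5A2 (log2 -0.38), COL1A1 (-0.27) and COL4A1 (-0.26) were lower by less (edgeR adjusted p at most 0.002). COL4A2 was lower by the least (log2 -0.13, edgeR adjusted p = 0.018), a call lost without RNF2 shRNA1 replicate 2 (0.097), without RNF2 shRNA2 replicate 1 (0.066) and with pairs summed (0.093). COL12A1 was 1.43-fold higher (log2 0.52, SE 0.0428, edgeR adjusted p = 1.4e-10) and FN1 1.36-fold higher (log2 0.44, SE 0.0614, edgeR adjusted p = 2.0e-06). For COL6A3 the interval of the difference ran from -0.175 to 0.413 on the log2 scale (edgeR adjusted p = 0.50). The lower levels of COL12A1 and FN1 in RNF2 shRNA1 thus differed from those in the other hairpin group.

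Fibronectin and the type VI, type IV and type XII chains were higher with PRT4165 than in Scramble, and COL5A2 was lower. Since no vehicle group is in the labels, effects of the compound, its vehicle and the absence of a hairpin vector cannot be told apart in this comparison or the next. Of the 9 genes tested 7 were higher and 1 lower, with a median log2 difference of 0.49 against -0.012 over all genes and 41.6% of all genes called (19.9% higher, 21.7% lower). FN1 stood at 65.9 and 63.0 CPM against 32.2 and 28.02, 2.14-fold higher (log2 1.10, SE 0.0568, edgeR adjusted p = 7.9e-13). COL6A3 stood at 5.54 and 5.52 CPM against 2.82 and 3.38, 1.79-fold higher (log2 0.84, SE 0.125, edgeR adjusted p = 5.8e-06). COL6A2 stood at 93.0 and 104 CPM against 58.9 and 58.2, 1.68-fold higher (log2 0.75, SE 0.0473, edgeR adjusted p = 4.4e-12). The treated libraries lay above both Scramble libraries for all 3, where 68.2% of all genes did not overlap.

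COL12A1 stood at 90.3 and 87.0 CPM with PRT4165 against 55.7 and 54.4 (log2 0.69, SE 0.0409, edgeR adjusted p = 1.0e-12), its highest level in the 10 libraries. COL6A1, at 323 and 372 CPM, was likewise highest here, although the 2 libraries differed more than in other groups (log2 0.45, SE 0.0512, edgeR adjusted p = 2.6e-05). COL4A1 (31.3 and 32.9 CPM, log2 0.49, SE 0.0571) and COL4A2 (51.2 and 55.6 CPM, log2 0.48, SE 0.0463) again rose together (edgeR adjusted p = 1.2e-07 and 7.5e-09). COL5A2 went the other way, at 87.6 and 87.6 CPM against 166 and 167, 1.90-fold lower (log2 -0.93, SE 0.0346, edgeR adjusted p = 1.4e-16). COL1A1, at 25.3 and 29.7 CPM, overlapped with Scramble (log2 0.041, 95% interval -0.093 to 0.175, edgeR adjusted p = 0.66). Without PRT4165 replicate 1 its difference was 0.16 (edgeR adjusted p = 0.050), just past the threshold.

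With GW-516, fibronectin, COL6A3 and COL1A1 were higher than in Scramble and COL5A2 was lower. Of the 9 genes tested 7 were higher and 1 lower, with a median log2 difference of 0.35 against -0.002 over all genes and 55.5% of all genes called (26.5% higher, 29.0% lower). FN1 stood at 68.9 and 71.2 CPM against 32.2 and 28.02 in Scramble, 2.32-fold higher (log2 1.22, SE 0.0564, edgeR adjusted p = 5.3e-14). COL6A3 stood at 6.28 and 6.22 CPM, 2.02-fold higher (log2 1.02, SE 0.123, edgeR adjusted p = 1.3e-07). COL1A1 stood at 46.9 and 46.1 CPM against 26.3 and 27.1, 1.74-fold higher (log2 0.80, SE 0.0624, edgeR adjusted p = 2.2e-10), the highest in the 10 libraries. COL5A2 fell to 85.3 and 84.1 CPM, 1.97-fold (log2 -0.97, SE 0.0345, edgeR adjusted p = 2.3e-17). All 4 comparisons with Scramble share its 2 libraries.

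The other chains moved less with GW-516. COL4A1 stood at 33.0 and 34.4 CPM (log2 0.57, SE 0.0564, edgeR adjusted p = 5.0e-09) and COL4A2 at 49.0 and 48.8 (log2 0.35, SE 0.0462, edgeR adjusted p = 5.1e-07). COL12A1 stood at 67.7 and 69.7 CPM (log2 0.32, SE 0.0410, edgeR adjusted p = 3.4e-07) and COL6A2 at 72.6 and 73.0 (log2 0.31, SE 0.0474, edgeR adjusted p = 4.3e-06). All 4 lay above Scramble without overlap, as 78.8% of all genes did not overlap in this comparison. COL6A1, at 263 and 259 CPM, was not called (log2 0.035, 95% interval -0.079 to 0.148, edgeR adjusted p = 0.60).

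Compared directly, GW-516 and PRT4165 differed in COL1A1 and in 4 chains that were higher with PRT4165, with 41.1% of all genes called (18.1% higher with GW-516, 23.0% lower). The libraries of the compounds did not overlap for any of the 9 genes, nor for 69.5% of all genes. COL1A1 was 1.69-fold higher with GW-516 (log2 0.76, SE 0.0619, edgeR adjusted p = 1.5e-09). COL6A2 (log2 -0.44, SE 0.0463), COL6A1 (-0.41, SE 0.0510) and COL12A1 (-0.37, SE 0.0399) were lower with GW-516 (edgeR adjusted p at most 5.5e-05). COL4A2 was called lower as well (log2 -0.13, edgeR adjusted p = 0.027). It did not hold without GW-516 replicate 1 (edgeR adjusted p = 0.12) or 2 (0.14), without PRT4165 replicate 2 (0.33) and without RNF2 shRNA1 replicate 2 (0.079). It was lost, too, with pairs summed (edgeR adjusted p = 0.22), with only these 2 groups in the fit (0.078), with no filter on low counts (0.051) or a filter of 1 CPM (0.091), and in DESeq2 (adjusted p = 0.072). FN1 differed by log2 0.12 (95% interval 0.009 to 0.231, edgeR adjusted p = 0.079), COL5A2 by -0.049 (-0.121 to 0.023, 0.29), COL4A1 by 0.072 (-0.041 to 0.185, 0.32) and COL6A3 by 0.18 (-0.061 to 0.413, 0.24). The FN1 difference passed without RNF2 shRNA2 replicate 1 or 2 (edgeR adjusted p = 0.040 each) or both (0.035), with only these 2 groups in the fit (0.012), with no filter (0.026) and with a filter of 1 CPM (0.024).

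**Figure D2:**
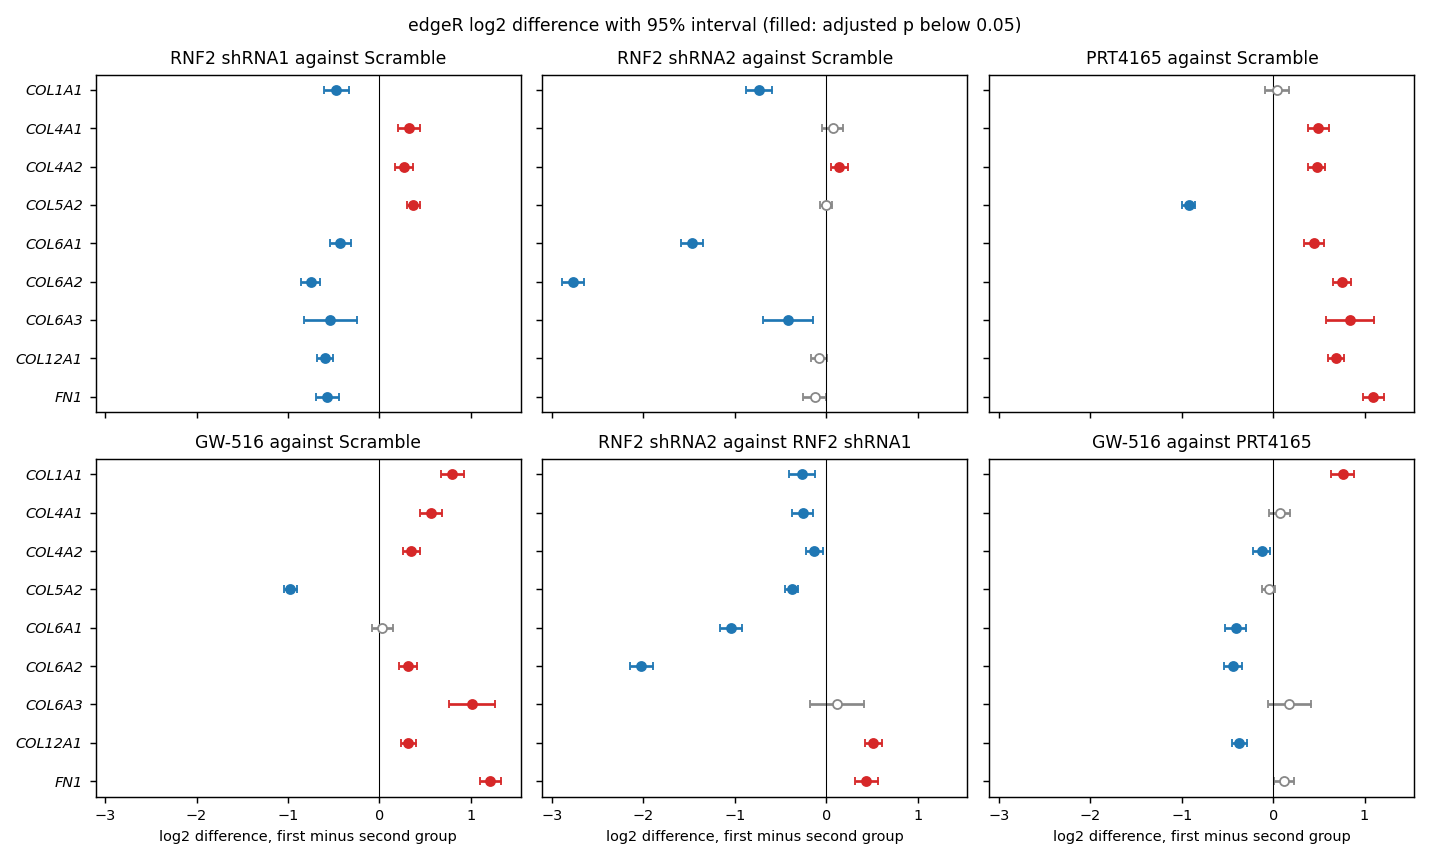
edgeR log2 difference (horizontal axis, first minus second group) with its 95% interval for the 9 tested genes in 6 comparisons; filled points have an adjusted p below 0.05, red higher and blue lower. COL6A2 against Scramble spans -2.77 in the libraries labelled RNF2 shRNA2 to 0.75 with PRT4165, and COL5A2 lies opposite to FN1 in the first hairpin and in both compounds.

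The proportion of the chains within a collagen type moved least in type IV, where it was lowest with GW-516. The ratio of COL4A2 to COL4A1 (RPKM over RPKM, mean ± SD, n = 2) was 1.68 ± 0.0530 in Scramble, 1.62 ± 0.00354 in RNF2 shRNA1, 1.78 ± 0.0933 in the libraries labelled RNF2 shRNA2, 1.66 ± 0.0375 with PRT4165 and 1.45 ± 0.0474 with GW-516. RNF2 shRNA1 and GW-516 lay below Scramble without overlap, and the other 2 groups overlapped with it. The ratio of COL6A1 to COL6A2 was 4.39 ± 0.0113 in Scramble, 5.51 ± 0.0757 in RNF2 shRNA1 and 10.9 ± 0.545 in the libraries labelled RNF2 shRNA2, and 3.55 ± 0.0679 and 3.62 ± 0.0502 with PRT4165 and GW-516. It did not overlap with Scramble in any of these 4 groups. COL6A1 exceeded COL6A3 by a ratio of 305 ± 42.4 in Scramble, 328 ± 18.5 in RNF2 shRNA1, 231 ± 23.4 with PRT4165, 154 ± 0.495 with GW-516 and 148 ± 16.8 in the libraries labelled RNF2 shRNA2. Of COL6A1, COL6A2 and COL6A3, the last was the scarcest per length in every group. The ratios are given as descriptions, without a test.

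Type I showed the widest shift toward COL1A1. COL1A2, the other chain of that fibril and one of the genes outside the 10, stood at 253 and 248 CPM in Scramble and 142 and 136 with GW-516, 1.81-fold lower (log2 -0.85, SE 0.0309, edgeR adjusted p = 3.6e-17), while COL1A1 rose. The ratio of COL1A1 to COL1A2 was thus 0.121 ± 0.00403 in Scramble and 0.381 ± 0.00743 with GW-516. It was 0.149 ± 0.00276 in RNF2 shRNA1, where both chains fell (COL1A2 log2 -0.77, SE 0.0311, edgeR adjusted p = 2.6e-16). It was 0.0708 ± 0.00365 in the libraries labelled RNF2 shRNA2, where COL1A1 fell and COL1A2 was not called (log2 0.029, edgeR adjusted p = 0.48). With PRT4165 it was 0.148 ± 0.0144, COL1A2 being lower (log2 -0.25, edgeR adjusted p = 3.8e-07). In every library COL1A1 was the scarcer chain per length.

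**Figure D3:**
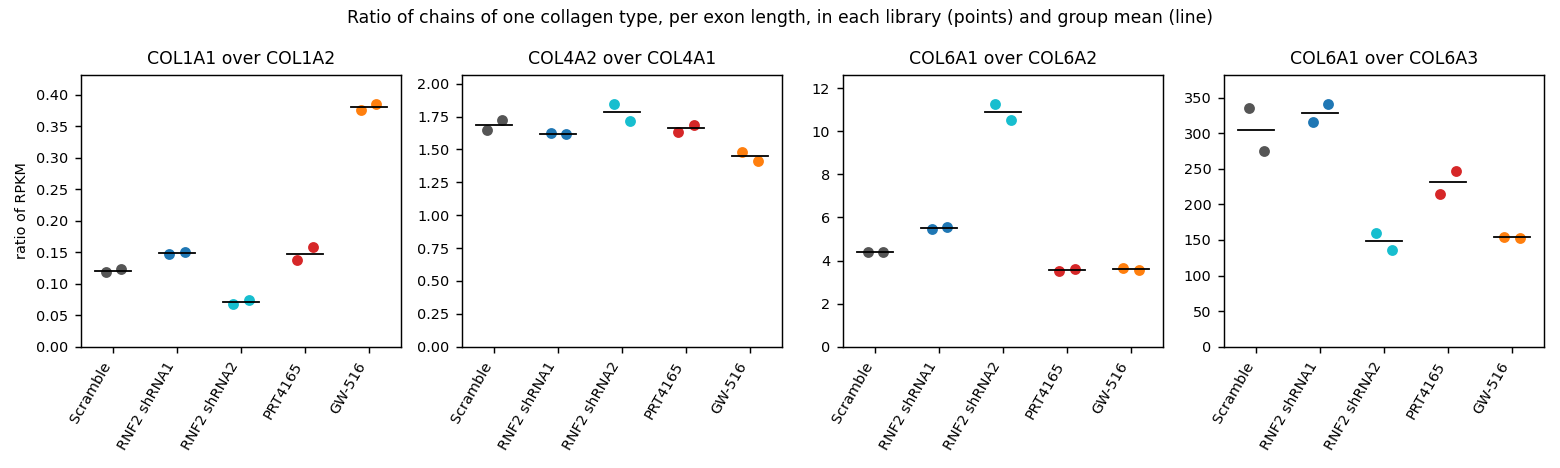
Ratio of 2 chains of 1 collagen type, RPKM over RPKM (vertical axes from 0), in each library (points) with group means (lines). COL6A1 over COL6A2 is highest in the libraries labelled RNF2 shRNA2 (10.5 and 11.3) and COL1A1 over COL1A2 with GW-516 (0.375 and 0.386), while COL4A2 over COL4A1 stays between 1.42 and 1.85.

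Likeness was measured as the root mean square difference of log2 CPM over the 10 libraries after centring each gene on its own mean, so that 0 is an identical pattern. Among the 9 genes COL4A1 and COL4A2 were closest (0.104), followed by FN1 and COL6A3 (0.175). COL6A2 was nearest to COL6A1 (0.595), although COL6A1 was nearer to COL1A1 (0.463). COL5A2 and COL6A2 were farthest apart (1.63). The measure favours genes that vary little: against a flat line COL4A2 stood at 0.167 and COL4A1 at 0.230, but COL6A1 at 0.656 and COL6A2 at 1.24. Pearson correlation over the same 10 libraries ignores the size of a change and is given as a description only. By it the first pair was COL6A1 and COL6A2, then FN1 and COL6A3, both ahead of COL4A1 and COL4A2. COL5A2 was by it most opposed to FN1 (-0.992), then to COL6A3 (-0.959), and less to COL6A2 (-0.597). Outside the 10, among 10616 genes of at least 5 CPM, the nearest to COL4A1 was SOS2 (0.0431), to COL4A2 SIPA1L1 (0.0518), to COL12A1 the integrin subunit gene ITGB8 (0.0842), to COL5A2 NBEAP1 (0.0971) and to COL6A1 DGKA (0.118). FN1 was nearest to SH3PXD2A and COL6A3 to SCNN1B (0.120 each), COL1A1 to KCTD11 (0.134) and COL6A2 to ARHGEF4 (0.205). Each of the 9 was thus closer to some gene outside the 10, where the choice is far wider, than to any of the others.

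In the libraries labelled RNF2 shRNA2, genes near the type VI pair differed less than the pair itself. Of 11 other tested genes within 200 kb of COL6A1 and COL6A2, 4 were lower and none higher there against Scramble, beside 21.0% of all genes called lower and 21.1% higher. The most affected of them was C21orf58, at a log2 of -0.92 (SE 0.103, edgeR adjusted p = 7.0e-08), against -1.47 and -2.77 for COL6A1 and COL6A2. FTCD, the nearest of them to COL6A2, was at 0.336 CPM in Scramble and not called (log2 0.21, SE 0.352). In RNF2 shRNA1, where COL6A1 and COL6A2 were lower, 3 of the 11 were lower, 3 higher and 5 not called. Of all genes 28.6% were lower there and 26.2% higher. C21orf58 (log2 -0.48), PCNT (-0.37) and MCM3AP (-0.20) were lower, and the higher ones included LSS, a sterol synthesis enzyme gene (log2 0.68, SE 0.0528, edgeR adjusted p = 5.6e-11). With PRT4165, 2 of the 11 were higher and 1 lower, beside 19.9% and 21.7% of all genes. With GW-516, 2 of the 11 were higher and 4 lower, beside 26.5% and 29.0% of all genes. Among them PCNT (log2 -0.44) and MCM3AP (-0.41) differed by more than COL6A1 (0.035) and COL6A2 (0.31). Beside COL4A1 and COL4A2, 4 other genes were tested. In RNF2 shRNA1, where both type IV chains were higher, 3 of the 4 were lower and 1 higher, beside 28.6% and 26.2% of all genes. RAB20 (log2 -1.38, SE 0.115), CARS2 (-1.08, SE 0.0586) and NAXD (-0.29, SE 0.0729) were lower, and ING1 (0.38, SE 0.0851) was higher, each with an edgeR adjusted p of at most 0.0014. Both chains were also higher with the compounds. There 1 of the 4 was lower and 3 not called with PRT4165, and 2 were lower and 2 higher with GW-516. In the libraries labelled RNF2 shRNA2, 2 were lower and 2 not called.

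**Figure D4:**
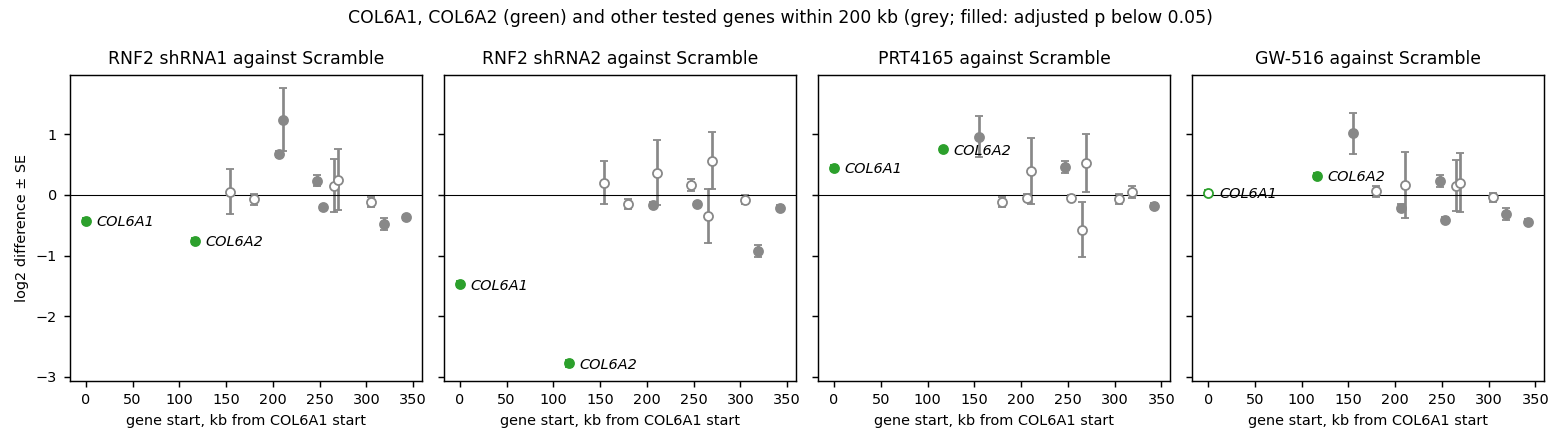
log2 difference against Scramble (vertical axis, bars are SE) of COL6A1 and COL6A2 (green) and the 11 other tested genes within 200 kb (grey), by distance of each gene's left end from that of COL6A1 (horizontal axis, kb). In the libraries labelled RNF2 shRNA2 the pair lies at -1.47 and -2.77, below all 11 others, the lowest of which is C21orf58 at -0.92.

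The rest of the matrix machinery was read from 6 lists, which are described by counts. They are to be read beside the shares of all genes called higher and lower against Scramble. These were 26.2% and 28.6% in RNF2 shRNA1, and 21.1% and 21.0% in the libraries labelled RNF2 shRNA2. With PRT4165 they were 19.9% and 21.7%, and with GW-516 26.5% and 29.0%. Receptors of collagen and fibronectin leaned upward with the compounds: 13 of 19 were higher and 2 lower with PRT4165 and likewise with GW-516, with median log2 differences of 0.43 and 0.69. ITGA2, the collagen-binding integrin subunit, stood at 95.2 ± 0.538 CPM in Scramble, 271 ± 11.2 with PRT4165 (log2 1.51, SE 0.0328) and 388 ± 5.99 with GW-516 (log2 2.03, SE 0.0330). ITGA5, the fibronectin receptor subunit, stood at 209.9 ± 0.566, 420 ± 6.22 and 560 ± 2.71 CPM in the same order (log2 1.00 and 1.42). Every one of these differences had an edgeR adjusted p of at most 3.3e-19. In RNF2 shRNA1 10 receptors were higher and 6 lower, and in the libraries labelled RNF2 shRNA2 4 were higher and 8 lower. Among the latter MRC2, a receptor that takes up collagen for degradation, stood at 8.71 ± 0.147 CPM against 25.8 in Scramble (log2 -1.56, SE 0.0640, edgeR adjusted p = 1.3e-15).

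Genes of collagen folding, modification and export were 10 higher and none lower of 23 with PRT4165 (median log2 0.18), and 15 higher and 2 lower with GW-516 (0.28). P4HA2, a subunit of the enzyme that hydroxylates collagen prolines, stood at 103 ± 1.97 CPM in Scramble, 130 ± 0.518 with PRT4165, 157 ± 1.25 with GW-516 and 48.6 ± 0.0219 in RNF2 shRNA1. The last was 2.12-fold lower (log2 -1.08, SE 0.0344, edgeR adjusted p = 3.0e-18). CREB3L1, a transcription factor known to drive collagen genes, was lower in the libraries labelled RNF2 shRNA2 (log2 -0.81, SE 0.0449) and higher with PRT4165 (0.41, SE 0.0430) and GW-516 (0.76, SE 0.0424), each with an edgeR adjusted p of at most 2.2e-08. CREB3L1 also stood lower in RNF2 shRNA1, at 38.0 ± 1.84 CPM against 47.6 ± 0.472 in Scramble. Of the 23 genes, 9 were higher and 7 lower in RNF2 shRNA1, and 5 and 11 in the libraries labelled RNF2 shRNA2. SERPINH1, the collagen chaperone HSP47, named after its values were seen, was low in every library, from 0.515 to 2.74 CPM, and was called higher in RNF2 shRNA1 (log2 1.75, SE 0.222), with PRT4165 (log2 0.97, SE 0.233) and with GW-516 (log2 1.96, SE 0.215), each with an edgeR adjusted p of at most 0.0015.

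Of 11 genes of propeptide cleavage and crosslinking, 1 was higher and 8 lower in RNF2 shRNA1, among them the crosslinking enzyme LOX (log2 -1.15, SE 0.0867, edgeR adjusted p = 3.5e-11). LOXL2 rose with both compounds, from 67.8 ± 0.648 CPM to 134 ± 9.37 with PRT4165 (log2 0.98) and 152 ± 1.60 with GW-516 (log2 1.17), with edgeR adjusted p-values of at most 5.6e-15. The procollagen protease TLL1 was lower in all 4 comparisons with Scramble, by -0.99, -0.53, -0.85 and -0.83 on the log2 scale with the first hairpin, the second, PRT4165 and GW-516 in turn. The counts were 2 higher and 5 lower in the libraries labelled RNF2 shRNA2, 6 and 4 with PRT4165, and 6 and 2 with GW-516.

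Of 14 laminins and other basement membrane partners, 10 were higher and 1 lower in RNF2 shRNA1 (median log2 0.31), where COL4A1 and COL4A2 rose too. The counts were 10 and 3 with PRT4165, 11 and 1 with GW-516, and 3 and 7 in the libraries labelled RNF2 shRNA2. LAMB3 stood at 22.4 ± 0.822 CPM in Scramble and 69.1 ± 0.611 with GW-516 (log2 1.63, SE 0.0562, edgeR adjusted p = 3.2e-17). NID1, which links laminin to type IV collagen, was 1.72-fold lower in the libraries labelled RNF2 shRNA2 (log2 -0.78, SE 0.0329, edgeR adjusted p = 2.1e-15). NID1 also stood below Scramble (154 ± 2.47 CPM) with PRT4165 (116 ± 0.146) and GW-516 (98.8 ± 0.350), and above it in RNF2 shRNA1 (180 ± 4.42). Of 16 interstitial matrix partners, 6 were higher and 2 lower in RNF2 shRNA1, 3 and 6 in the libraries labelled RNF2 shRNA2, and 9 and 3 with each compound. The fibrillin gene FBN1 stood at 8.78 ± 0.179 CPM in Scramble, 22.3 ± 1.15 in RNF2 shRNA1, 24.0 ± 0.284 with PRT4165 and 26.6 ± 0.0480 with GW-516 (log2 1.35, 1.45 and 1.60, edgeR adjusted p at most 6.8e-15). The proteoglycan VCAN stood at 9.47 ± 0.0233 CPM in Scramble and 41.4 ± 1.87 with PRT4165 (log2 2.13, SE 0.0653, edgeR adjusted p = 2.8e-18).

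Among 35 other collagen chains 26 were tested. The counts were 6 higher and 3 lower in RNF2 shRNA1, 6 and 2 in the libraries labelled RNF2 shRNA2, 5 and 3 with PRT4165, and 12 and 2 with GW-516, where the median log2 was 0.57. The shares of all genes called higher were 26.2%, 21.1%, 19.9% and 26.5% in the same order. Only with GW-516 did the chains called higher clearly exceed that share. COL4A5, a type IV chain, was higher in both hairpin groups, with PRT4165 and with GW-516 (log2 0.38, 0.46, 0.36 and 0.24, edgeR adjusted p at most 9.5e-07). COL4A6, its head-to-head neighbour, stood at 47.9 ± 0.308 CPM in Scramble and 90.7 ± 4.93 in the libraries labelled RNF2 shRNA2 (log2 0.92, SE 0.0414, edgeR adjusted p = 7.6e-15). COL8A1, a short-chain network collagen, went down with COL5A2 in both compounds, from 93.6 ± 1.58 CPM to 45.0 ± 1.13 with PRT4165 (log2 -1.06) and 51.1 ± 0.710 with GW-516 (log2 -0.87), with edgeR adjusted p-values of at most 9.6e-16. COL8A1 was lower in the libraries labelled RNF2 shRNA2 too (log2 -0.68, SE 0.0373, edgeR adjusted p = 3.0e-13), where COL5A2 was not called.

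**Figure D5:**
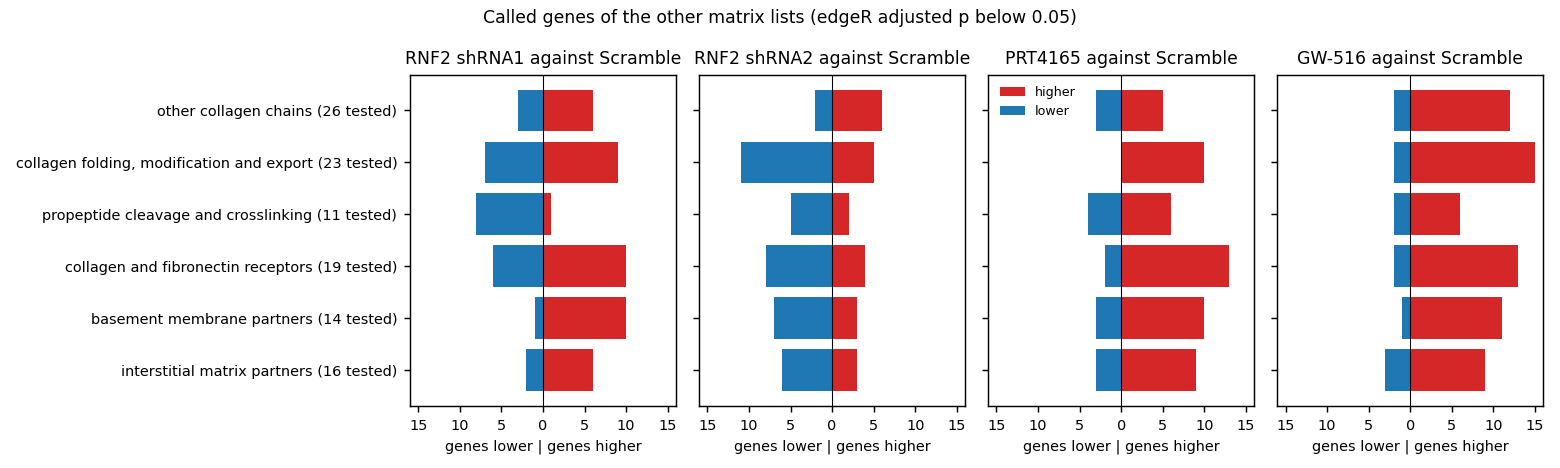
Number of called genes (edgeR adjusted p below 0.05) that were higher (red, to the right of 0) or lower (blue, to the left) in 6 lists of other matrix genes, for the 4 comparisons with Scramble; the number tested is given with each list. Receptors show 13 higher and 2 lower with each compound, and the libraries labelled RNF2 shRNA2 show more lower than higher in 5 of the 6 lists.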

How the data were processed

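RNA-seq of PC3 cells gave 10 libraries, 5 groups of 2, grouped by title. The deposited files hold raw counts for every gene and were made by the authors with featureCounts 1.4.3-p1, strand option 2 and GENCODE 18 genes, per the file headers. The recorded command has no read-pair option. If the reads were paired, both ends of a fragment add to the counts, which then understate counting noise. The submitters' processing notes name hg19 (GRCh37), STAR and DESeq2 1.8.1 without their roles. How multi-mapping reads were treated is not given here. Of 57445 identifiers, 51488 (89.6%) matched a symbol.

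All genes were fitted with edgeR 4.0.16 (R 4.3.3): TMM, filterByExpr with a minimum count of 10 (18478 genes), a mean for each group fitted to the 10 libraries together (residual df 5), two-sided quasi-likelihood F tests with robust estimation, Benjamini-Hochberg over all genes. A call is an adjusted p below 0.05. Checked on simulated data. RPKM divides CPM by the tables' exon length. Named were the 10 genes, up to 3 genes per list and comparison with the smallest adjusted p, the nearest genes by log2 CPM pattern, genes within 200 kb, RNF2 and BMI1. Members, lists and tests were chosen with earlier results of these data known. The alternatives were RLE, DESeq2 1.42.0, limma-voom 3.58.1, no filter or 1 CPM in 2 libraries, the 2 groups alone, replicate number as a block, adjusted p below 0.01, at least 1.5-fold, summing the pairs that nearly repeat each other (Scramble, GW-516 and RNF2 shRNA1), and leaving out each library. A fit without both RNF2 shRNA2 libraries was added once the data had been seen. Tables and figures used Python 3.11.15, pandas 2.3.3, numpy 2.4.6 and matplotlib 3.10.9.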

Additional observations from a re-analysis of the deposited data

How the results depend on the processing

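Of 1062 values of single genes under the alternatives (the 1.5-fold minimum aside), 1027 kept their side of the threshold. A call was lost by 24 and gained by 11, and no call reversed its direction. Values without a call did not all keep their sign, as for COL5A2 in the libraries labelled RNF2 shRNA2 against Scramble. All that lost or gained a call belong to the genes named with their values above or to the threshold of 0.01. In the libraries labelled RNF2 shRNA2 against Scramble, the count of genes higher was 0 with pairs summed and 0 at an adjusted p below 0.01, and ran from 0 to 1 when a library was left out. For GW-516 against PRT4165 the count higher was 2 with no filter, with a filter of 1 CPM, with only these groups in the fit and leaving out both RNF2 shRNA2 libraries, and ran from 1 to 2 when a library was left out. Requiring a change of at least 1.5-fold left 0 higher and 2 lower in RNF2 shRNA1, 0 higher in the libraries labelled RNF2 shRNA2, 4 higher with PRT4165, 3 higher with GW-516, 0 higher and 2 lower between the hairpin groups, and 0 lower for GW-516 against PRT4165. Deviations of same-numbered libraries correlated between -0.10 and 0.02. In pairs that nearly repeat each other these deviations may be mostly counting noise, so they cannot show whether replicate numbers pair the samples. With replicate number as a block all 54 calls stayed as they were, and calls over all genes went from 10112 to 9992 in RNF2 shRNA1 and from 7594 to 7419 in GW-516 against PRT4165. With pairs summed, calls over all genes fell by more than 1.5 times in 3 comparisons, from 7772 to 4902 in the libraries labelled RNF2 shRNA2, from 7695 to 4911 with PRT4165 and from 7594 to 4555 between the compounds. COL5A1, at 8 counts or fewer, lies below what this depth can compare.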

Other observations

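Between the hairpin groups, the basement membrane partners leaned 1 way: of 14 tested, none was higher and 11 were lower in the libraries labelled RNF2 shRNA2 than in RNF2 shRNA1 (median log2 -0.56 against 0.012 over all genes), beside 29.2% of all genes called lower. NID1 differed by log2 -1.01 (SE 0.0329), LAMA4 by -0.99 (SE 0.0407) and LAMC1 by -0.82 (SE 0.0312), with edgeR adjusted p-values of at most 2.2e-16. CCN1, a matricellular protein gene, stood at 225 ± 5.71 CPM in RNF2 shRNA1 and was 5.62-fold lower in the libraries labelled RNF2 shRNA2 (log2 -2.49, SE 0.0376, edgeR adjusted p = 1.5e-24).

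Between the compounds, 10 of the 26 other collagen chains tested were higher with GW-516 than with PRT4165 and 2 were lower, beside 18.1% and 23.0% of all genes. COL24A1, a minor fibrillar chain, stood at 2.39 ± 0.194 CPM with GW-516 and 0.553 ± 0.157 with PRT4165 (log2 2.12, SE 0.259, edgeR adjusted p = 3.6e-07). The crosslinking enzyme LOX stood at 15.8 ± 0.671 and 8.36 ± 0.314 CPM (log2 0.91, SE 0.0779, edgeR adjusted p = 1.1e-09), and VCAN at 18.2 ± 1.19 and 41.4 ± 1.87 CPM (log2 -1.18, SE 0.0597, edgeR adjusted p = 9.7e-14).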
